A study of Mus musculus with 12 samples.

Results

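Genes that mark T cells, 10 in all, were followed in whole mouse lung: Cd3d, Cd3e and Cd3g, which encode chains of the CD3 complex, the co-receptor genes Cd4 and Cd8a, the surface receptor genes Cd2, Cd5 and Cd6, the adaptor gene Lat, and Thy1. They were chosen by name, as probes whose RefSeq transcript belongs to one of these symbols, with earlier results of these data known. All 10 were found among the 17009 named genes of the array, on 14 probes. Each group had 3 arrays. The LPS/NNK group received intranasal lipopolysaccharide (LPS, bacterial endotoxin, 5 ug per mouse weekly for 16 weeks) and intraperitoneal NNK (a tobacco-specific nitrosamine carcinogen, 3 mg per mouse within the first 4 weeks). The LPS group received the endotoxin alone, the NNK group the carcinogen alone, and the PBS group weekly saline vehicle. All groups were female FVB/N mice by the labels, 7 weeks old at the start, and lungs were taken a week after the last treatment. The labels name no vehicle injection for mice without NNK and no instillation for mice given NNK alone, so the route and handling differ together with the agent. They do not say whether an array holds 1 animal or a pool, so the spread between arrays may be partly technical.

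The T cell receptor recognises peptide on MHC molecules but has no signalling tail of its own. It is carried to the surface with the CD3 chains, whose cytoplasmic motifs are phosphorylated by LCK, the kinase held by the CD4 and CD8 co-receptors. ZAP70 then phosphorylates the membrane adaptor LAT, on which the downstream signalling complex is built. In the lung, endotoxin acts on macrophages and epithelium, and lymphocytes gather around airways and vessels when the exposure is repeated.

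Values are log2 of the probe signal minus the 75th percentile of that array, so 0 is the level of a probe at that percentile and 1 unit is a doubling. They show how a gene moved between arrays, not how abundant it was against another gene, because probes differ in brightness. The brightest probe of each of the 10 genes, which stands for the gene here, was well above background on all 12 arrays. Markers of lung epithelium and endothelium were also well above background on all 12 arrays (8 of 8 genes). Between 55.6% and 67.5% of spots were well above background in the 9 treated arrays, against 70.2% to 73.1% in PBS arrays. The 75th percentile intensity was 183 to 510 in treated arrays and 699 to 984 in PBS arrays, and that difference runs with every comparison against PBS. PBS replicates 1 and 2 stood apart: 4 Y-linked genes were well above background there and Xist was not, against the labelled female sex, while PBS replicate 3 and all 9 treated arrays showed the reverse. The values of the 10 genes and the list counts against PBS were therefore also taken without those 2 arrays, when PBS replicate 3 alone stands for the group and is assumed to vary like the other groups.

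For 6 of the 10 genes a promoter window was given (RefSeq, GRCm38.p6, 250 bases before to 50 after the start, printed 5′ to 3′ on the gene's strand). Those with a motif match are printed, and 3 of these genes (Cd3g, Cd3d and Cd3e) lie side by side. Capitals mark matches on either strand to 5 short motifs. These were AGGAAG for the core that ETS factors bind, TGTGGT for that of RUNX factors, CAGGTG for an E-box, CTTTGA for the core of TCF factors and AGATAA for that of GATA factors. The letters were chosen with the windows in view. The Cd3d window is chr9:44981536-44981835 on the plus strand, Cd3e chr9:45009562-45009861 minus, Cd3g chr9:44980382-44980681 minus, Cd5 chr19:10738925-10739224 minus and Lat chr7:126369519-126369818 minus.

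Cd3d: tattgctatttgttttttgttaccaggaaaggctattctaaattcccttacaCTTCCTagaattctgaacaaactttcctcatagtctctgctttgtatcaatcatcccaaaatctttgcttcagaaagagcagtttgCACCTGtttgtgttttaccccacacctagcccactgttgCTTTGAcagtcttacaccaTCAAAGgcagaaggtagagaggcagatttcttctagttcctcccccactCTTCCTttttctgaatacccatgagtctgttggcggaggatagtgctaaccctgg

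Cd3e: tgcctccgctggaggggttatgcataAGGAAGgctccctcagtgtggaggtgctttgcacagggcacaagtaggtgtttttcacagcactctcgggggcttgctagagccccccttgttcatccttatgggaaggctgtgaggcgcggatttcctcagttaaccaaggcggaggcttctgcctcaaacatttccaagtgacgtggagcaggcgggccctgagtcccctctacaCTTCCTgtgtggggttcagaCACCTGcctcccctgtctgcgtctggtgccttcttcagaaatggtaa

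Cd3g: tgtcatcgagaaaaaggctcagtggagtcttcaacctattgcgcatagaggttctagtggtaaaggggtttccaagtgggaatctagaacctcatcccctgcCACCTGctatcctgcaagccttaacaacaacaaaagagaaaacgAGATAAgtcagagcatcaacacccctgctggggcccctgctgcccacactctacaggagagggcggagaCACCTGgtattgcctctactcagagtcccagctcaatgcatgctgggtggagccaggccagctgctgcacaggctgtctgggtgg

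Cd5: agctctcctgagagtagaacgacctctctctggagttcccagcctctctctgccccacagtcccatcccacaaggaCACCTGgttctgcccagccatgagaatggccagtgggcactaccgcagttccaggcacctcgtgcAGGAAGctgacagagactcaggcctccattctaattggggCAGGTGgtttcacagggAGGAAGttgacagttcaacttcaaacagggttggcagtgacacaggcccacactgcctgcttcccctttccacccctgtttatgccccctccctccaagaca

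Lat: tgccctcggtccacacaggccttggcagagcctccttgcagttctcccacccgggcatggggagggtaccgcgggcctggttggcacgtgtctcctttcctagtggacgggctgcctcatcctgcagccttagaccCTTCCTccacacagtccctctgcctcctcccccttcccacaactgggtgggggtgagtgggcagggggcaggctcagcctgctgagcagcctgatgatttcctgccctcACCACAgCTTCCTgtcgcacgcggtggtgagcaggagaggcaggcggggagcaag

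The E-box letters were found in 4 of the 6 windows (Cd3d, Cd3e, Cd3g and Cd5) and in 20.2% of the 32851 mouse promoter windows in the table. The ETS letters were found in 4 of 6 (Cd3d, Cd3e, Cd5 and Lat), against 35.4% of all windows. The TCF letters were matched only in Cd3d, the GATA letters only in Cd3g and the RUNX letters only in Lat, against 16%, 11.2% and 16.8% of all windows. The Cd8a window (chr6:71373177-71373476, plus strand) held none of the 5. Cd3g and Cd3d point away from each other, and their windows lie 854 bases apart. These matches describe letters and were not tested for binding.

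The mean of each of the 10 genes was higher in both endotoxin-treated groups than in NNK and PBS lungs. Of the 10 genes, 7 were higher in LPS/NNK than in NNK lungs (Cd3d, Cd3g, Cd8a, Cd5, Cd6, Lat and Thy1), by 1.28 to 2.82 on the log2 scale. Over all 21856 genes and transcripts tested, 7.92% were higher in that comparison (limma, adjusted p under 0.05). Against PBS, 9 of 10 were higher in LPS/NNK lungs, where 27.9% of all tested were higher, and 8 of 10 in LPS lungs, where 26.1% were. In NNK against PBS lungs 4 were higher and 1 lower, where 27.8% and 23.7% of all tested were higher and lower. LPS/NNK minus LPS was called for none of the 10 by limma, with 3 at an unadjusted p under 0.05 (4.11% of all tested were called in either direction). Without LPS/NNK replicate 2 it was called lower for Cd2 and higher for Lat and Thy1. In that setting 2894 of the 21856 tested were called higher and 1934 lower. The members' median log2 change was 2.25 for LPS/NNK minus NNK, 1.87 for LPS/NNK minus PBS, 1.76 for LPS minus PBS and 0.44 for NNK minus PBS. The median over all tested was -0.06, -0.04, -0.06 and 0.04 in these comparisons, in that order. With another background correction (normexp) 5 were higher in LPS/NNK than in NNK lungs, Cd3d and Cd8a no longer passing, where 333 of the 21856 tested were higher. In whole-lung RNA, more T cells and more RNA per T cell cannot be told apart.

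**Figure D1:**
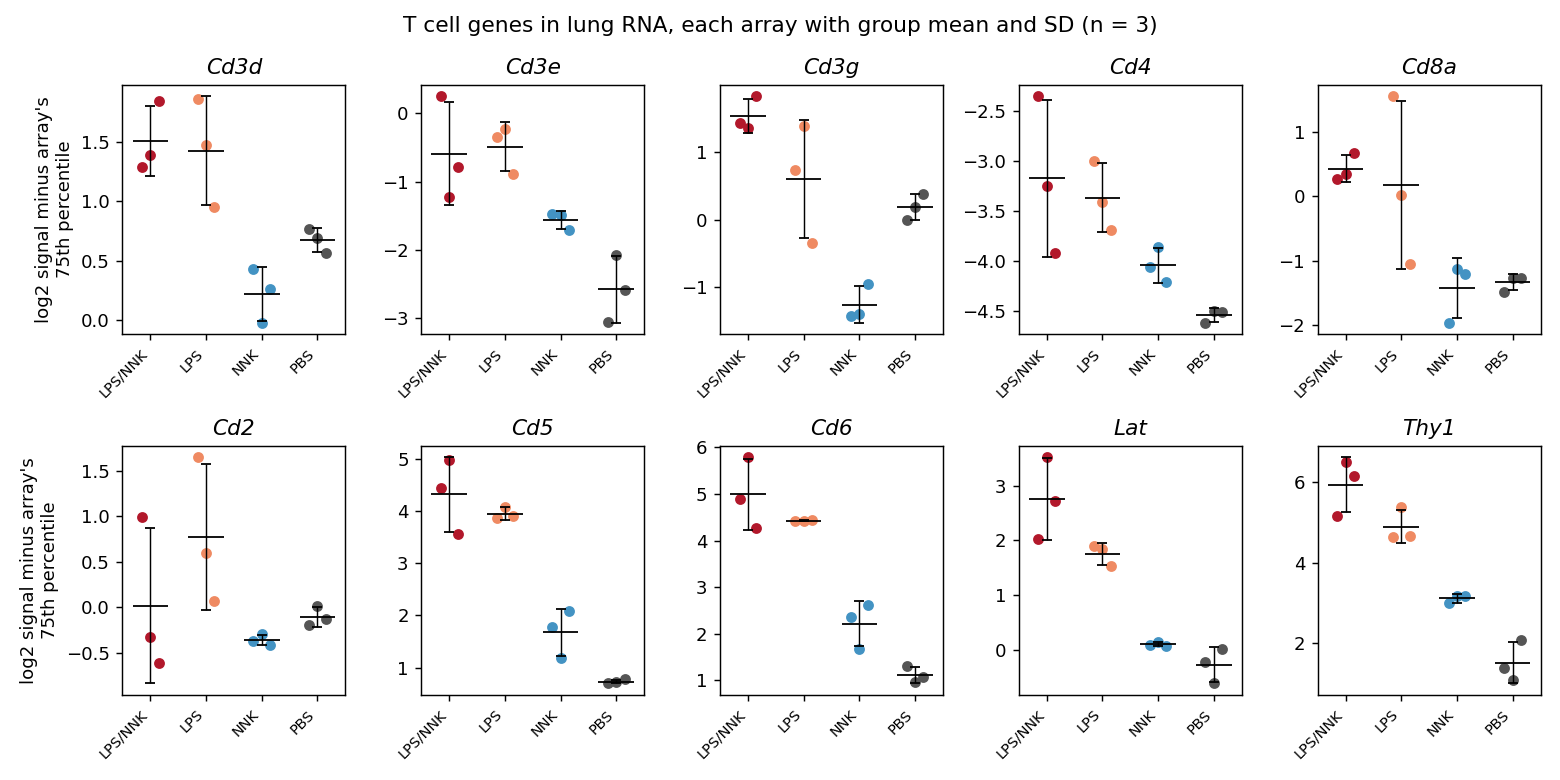
Log2 signal relative to each array's 75th percentile (y axis, its own range in each panel) for the 10 genes in LPS/NNK, LPS, NNK and PBS lungs. Points are the 3 arrays of a group, the long bar is the mean and the error bar the SD. Cd5, Cd6, Lat and Thy1 are high in both endotoxin groups and low in the other two, while Cd2 shows wide overlap.

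Among the CD3 chains, Cd3g moved most between the endotoxin and carcinogen groups. CD3 gamma pairs with CD3 epsilon in the receptor. Cd3g measured 1.44, 1.36 and 1.83 in LPS/NNK lungs, 0.74, 1.39 and -0.34 in LPS lungs, -1.43, -1.40 and -0.95 in NNK lungs and 0.00, 0.19 and 0.38 in PBS lungs. All 3 LPS/NNK arrays lay above all NNK and PBS arrays, and all 3 NNK arrays lay below every other array. Cd3g was higher in LPS/NNK than in NNK lungs by 2.80 (SE 0.36, adjusted p 0.000384) and than in PBS lungs by 1.36 (SE 0.36, adjusted p 0.00611). NNK lungs were below PBS lungs, with a log2 change of -1.45 (SE 0.36, adjusted p 0.00508). LPS and PBS lungs overlapped, and their difference of 0.41 did not pass (SE 0.36, adjusted p 0.349). That value turns on single LPS arrays: it was 0.87 (adjusted p 0.0208) without replicate 6, the lowest, and 0.01 (adjusted p 0.982) without replicate 5, the highest.

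On all arrays, Cd3g was the one gene of the 10 called for a change in the endotoxin difference with the carcinogen. Missing that call does not show that the other 9 were without such a change. The difference with NNK (LPS/NNK minus NNK, 2.80) exceeded that without it (LPS minus PBS, 0.41) by 2.40 (SE 0.51, adjusted p 0.00433). This difference of differences was called for 38.7% of all tested. It was 2.59 without PBS replicates 1 and 2, which leaves 1 PBS array, and 1.60 (adjusted p 0.106) under normexp. For the other 9 genes it ran between -1.12 (Cd3e, adjusted p 0.0973) and 0.63 (Lat, adjusted p 0.286) on the brightest probes. The dimmer Cd6 probe gave -1.68 (SE 0.65, adjusted p 0.0552), and the mean of the Cd6 probes -1.12 (adjusted p 0.0637). Without LPS/NNK replicate 2 that of Cd3e was -1.54 (adjusted p 0.0113) and that of Lat 0.99 (adjusted p 0.0486). Under quantile normalization that of Cd3e also passed (-1.35, adjusted p 0.0444).

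Cd3d, whose product CD3 delta also pairs with CD3 epsilon, varied less. It measured 1.29, 1.39 and 1.84 in LPS/NNK lungs, 1.86, 1.47 and 0.95 in LPS lungs, 0.43, -0.02 and 0.26 in NNK lungs and 0.77, 0.69 and 0.57 in PBS lungs. Both endotoxin groups lay above PBS and NNK arrays without overlap, and the 3 NNK arrays lay below the 3 PBS arrays. The change was 1.28 in LPS/NNK against NNK (SE 0.27, adjusted p 0.00708) and 0.83 in LPS/NNK against PBS (SE 0.27, adjusted p 0.0183). It was 0.75 in LPS against PBS (SE 0.27, adjusted p 0.0288), a call that ended in 11 of 17 alternatives, including the removal of each of PBS replicates 1, 2 and 3 and LPS replicates 1 and 5 (0.53 to 0.80, adjusted p 0.0524 to 0.11). Without PBS replicate 3 or LPS/NNK replicate 6 the LPS/NNK call against PBS ended too (0.77, adjusted p 0.0566, and 0.66, adjusted p 0.0778). The NNK difference from PBS was -0.45 (SE 0.27, adjusted p 0.169).

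Cd3e differed from its neighbours in where the NNK group stood. CD3 epsilon is the chain present in both CD3 pairs. It measured 0.25, -1.23 and -0.79 in LPS/NNK lungs, -0.34, -0.23 and -0.89 in LPS lungs, -1.48, -1.49 and -1.71 in NNK lungs and -3.06, -2.08 and -2.59 in PBS lungs. The NNK arrays lay above all PBS arrays and below all arrays of both endotoxin groups. Cd3e was higher than in PBS lungs by 1.99 in LPS/NNK (SE 0.36, adjusted p 0.000547), 2.09 in LPS (SE 0.36, adjusted p 0.000454) and 1.01 in NNK lungs (SE 0.36, adjusted p 0.0321). Leaving out PBS replicate 1 or 3, or NNK replicate 2 or 3, ended the NNK call (0.77 to 1.0, adjusted p 0.069 to 0.131). LPS/NNK minus NNK was 0.97 (SE 0.36, adjusted p 0.0802). It passed with the slide as a random block (1.02, adjusted p 0.0373) but not as a fixed effect (1.12, adjusted p 0.0569). It was 0.44 (adjusted p 0.798) under normexp and 0.55 (adjusted p 0.211) without LPS/NNK replicate 2.

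Of the co-receptor genes, Cd8a, whose product binds MHC class I, was higher in LPS/NNK than in NNK lungs, and Cd4, whose product binds MHC class II, was called in both endotoxin groups against PBS but not against NNK. Cd8a measured 0.27, 0.35 and 0.67 in LPS/NNK lungs, 1.55, 0.02 and -1.05 in LPS lungs, -1.96, -1.12 and -1.20 in NNK lungs and -1.48, -1.26 and -1.26 in PBS lungs. LPS lungs spanned the widest range of any group and gene of the set (SD 1.31), and LPS/NNK arrays lay above all NNK and PBS arrays. The Cd8a change was 1.86 in LPS/NNK against NNK (SE 0.48, adjusted p 0.0203), 1.76 in LPS/NNK against PBS (SE 0.48, adjusted p 0.00749) and 1.50 in LPS against PBS (SE 0.48, adjusted p 0.0177). The first ended without NNK replicate 2 (1.59, adjusted p 0.091), LPS/NNK replicate 3 (1.90, adjusted p 0.0558) or LPS/NNK replicate 6 (1.74, adjusted p 0.0658), and under normexp it was 0.82 (adjusted p 0.522). The last was 0.81 (adjusted p 0.0653) without LPS replicate 1 and 1.43 (adjusted p 0.0511) without PBS replicate 1. The 2 dimmer Cd8a probes gave 1.28 (SE 0.35, adjusted p 0.0256) and 0.57 (SE 0.65, adjusted p 0.576) for LPS/NNK minus NNK, and with the mean of all 3 probes it was 1.24 (adjusted p 0.0779). For LPS/NNK minus PBS these probes gave 1.19 (SE 0.35, adjusted p 0.0118) and 0.24 (SE 0.65, adjusted p 0.772), and the mean of all 3 gave 1.06 (adjusted p 0.0634), which ends that call.

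Cd4 measured -2.35, -3.25 and -3.92 in LPS/NNK lungs, -3.00, -3.41 and -3.69 in LPS lungs, -4.06, -3.86 and -4.21 in NNK lungs and -4.62, -4.50 and -4.51 in PBS lungs. The group means fell in the order LPS/NNK, LPS, NNK, PBS, with the LPS/NNK arrays spread over more than 1 unit and overlapping NNK. Cd4 was higher than in PBS lungs by 1.37 in LPS/NNK (SE 0.34, adjusted p 0.00394) and 1.18 in LPS lungs (SE 0.34, adjusted p 0.00966), the second of which ended under normexp (1.02, adjusted p 0.116). Against NNK, LPS/NNK lungs differed by 0.87 (SE 0.34, adjusted p 0.0913). Without LPS/NNK replicate 6 that difference was 1.24 (adjusted p 0.0271), and under normexp it was -0.05 (adjusted p 0.954).

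Cd5 and Cd6 encode related receptors with scavenger receptor cysteine-rich domains. CD5 dampens receptor signalling and is also carried by B-1 cells, and CD6 binds ALCAM. Cd5 measured 4.44, 4.98 and 3.56 in LPS/NNK lungs, 3.87, 4.09 and 3.91 in LPS lungs, 1.77, 1.19 and 2.08 in NNK lungs and 0.70, 0.72 and 0.77 in PBS lungs. Both endotoxin groups lay above every NNK array, and every NNK array above every PBS array. The change was 2.64 in LPS/NNK against NNK (SE 0.33, adjusted p 0.000345), 3.60 in LPS/NNK against PBS (SE 0.33, adjusted p 5.42e-06) and 3.23 in LPS against PBS (SE 0.33, adjusted p 1.44e-05).

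Cd6 measured 4.90, 5.79 and 4.27 in LPS/NNK lungs, 4.42, 4.42 and 4.44 in LPS lungs, 2.37, 1.68 and 2.61 in NNK lungs and 1.30, 0.96 and 1.07 in PBS lungs. The groups were ordered as for Cd5, and the 3 LPS arrays were nearly equal (SD 0.01). The change was 2.76 in LPS/NNK against NNK (SE 0.35, adjusted p 0.000353), 3.88 in LPS/NNK against PBS (SE 0.35, adjusted p 4.82e-06) and 3.32 in LPS against PBS (SE 0.35, adjusted p 1.73e-05). The dimmer Cd6 probe gave 1.16 for LPS/NNK minus NNK (SE 0.46, adjusted p 0.0968) and 2.18 for LPS/NNK minus PBS (SE 0.46, adjusted p 0.00158). NNK against PBS was 0.96 for Cd5 (SE 0.33, adjusted p 0.0272) and 1.11 for Cd6 (SE 0.35, adjusted p 0.017). The Cd5 call ended without any one of PBS replicates 1, 2 and 3 or NNK replicates 2 and 5 (0.75 to 0.98, adjusted p 0.0543 to 0.103). The Cd6 call ended without PBS replicate 2, NNK replicate 2 or NNK replicate 5 (0.92 to 1.04, adjusted p 0.0551 to 0.0667), and with cyclic loess normalization both fell short (0.49, adjusted p 0.232, and 0.56, adjusted p 0.177).

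Cd2, an adhesion receptor of T and natural killer cells that binds CD48 in mouse, was called in none of the 6 comparisons between groups. It measured 0.99, -0.33 and -0.61 in LPS/NNK lungs, 1.65, 0.60 and 0.07 in LPS lungs, -0.37, -0.30 and -0.41 in NNK lungs and -0.20, 0.01 and -0.13 in PBS lungs. LPS arrays lay above all NNK and PBS arrays, and LPS/NNK arrays fell on both sides of them. LPS minus PBS was 0.88 (SE 0.42, adjusted p 0.087), LPS/NNK minus NNK was 0.38 (SE 0.42, adjusted p 0.568) and LPS/NNK minus LPS was -0.76 (SE 0.42, adjusted p 0.268). The values turned on single arrays. Without LPS replicate 1, LPS minus PBS was 0.44 (adjusted p 0.36) and LPS/NNK minus LPS -0.32 (adjusted p 0.66). Without LPS/NNK replicate 6 the last was -0.44 (adjusted p 0.637). Without LPS replicate 6, LPS minus PBS was 1.23 (adjusted p 0.0297) and LPS minus NNK 1.48 (adjusted p 0.0492), and without LPS/NNK replicate 2, LPS/NNK minus LPS was -1.24 (adjusted p 0.031).

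Lat, the adaptor that ZAP70 phosphorylates, which mast cells and platelets also carry, measured 2.03, 3.52 and 2.72 in LPS/NNK lungs, 1.89, 1.84 and 1.53 in LPS lungs, 0.10, 0.14 and 0.08 in NNK lungs and -0.21, -0.61 and 0.02 in PBS lungs. The 4 groups did not overlap. The change was 2.65 in LPS/NNK against NNK (SE 0.32, adjusted p 0.000321), 3.02 in LPS/NNK against PBS (SE 0.32, adjusted p 1.48e-05) and 2.02 in LPS against PBS (SE 0.32, adjusted p 0.000281). NNK minus PBS was 0.37 (SE 0.32, adjusted p 0.347). LPS/NNK minus LPS was 1.0 (SE 0.32, adjusted p 0.086), the only one of the 10 in that comparison whose arrays did not overlap, where 12.9% of all tested were higher without overlap. Without LPS/NNK replicate 2 it was 1.37 (adjusted p 0.00776).

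Thy1, a GPI-anchored protein of mouse T cells that fibroblasts, neurons and innate lymphoid cells also carry, was high in both endotoxin groups. It measured 5.17, 6.49 and 6.15 in LPS/NNK lungs, 4.65, 5.37 and 4.66 in LPS lungs, 2.99, 3.18 and 3.18 in NNK lungs and 1.38, 1.09 and 2.09 in PBS lungs. Endotoxin groups lay above NNK, and NNK above PBS, without overlap. The change against PBS was 4.42 in LPS/NNK (SE 0.36, 21.4-fold, adjusted p 2.61e-06), 3.37 in LPS (SE 0.36, 10.3-fold, adjusted p 1.88e-05) and 1.60 in NNK lungs (SE 0.36, 3.03-fold, adjusted p 0.00287). LPS/NNK minus NNK was 2.82 (SE 0.36, adjusted p 0.000362) and 2.55 on the dimmer Thy1 probe (SE 0.24, adjusted p 8.59e-05). On that probe NNK minus PBS was 0.43 (SE 0.24, adjusted p 0.159), so the Thy1 call for NNK alone holds on one probe of the pair. The dimmer probe also gave smaller changes against PBS in LPS/NNK (2.98, SE 0.24, adjusted p 3.03e-06) and LPS lungs (2.31, SE 0.24, adjusted p 2.05e-05). LPS/NNK minus LPS was 1.05 (SE 0.36, adjusted p 0.0985), and 1.43 (adjusted p 0.0111) without LPS/NNK replicate 2.

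**Figure D2:**
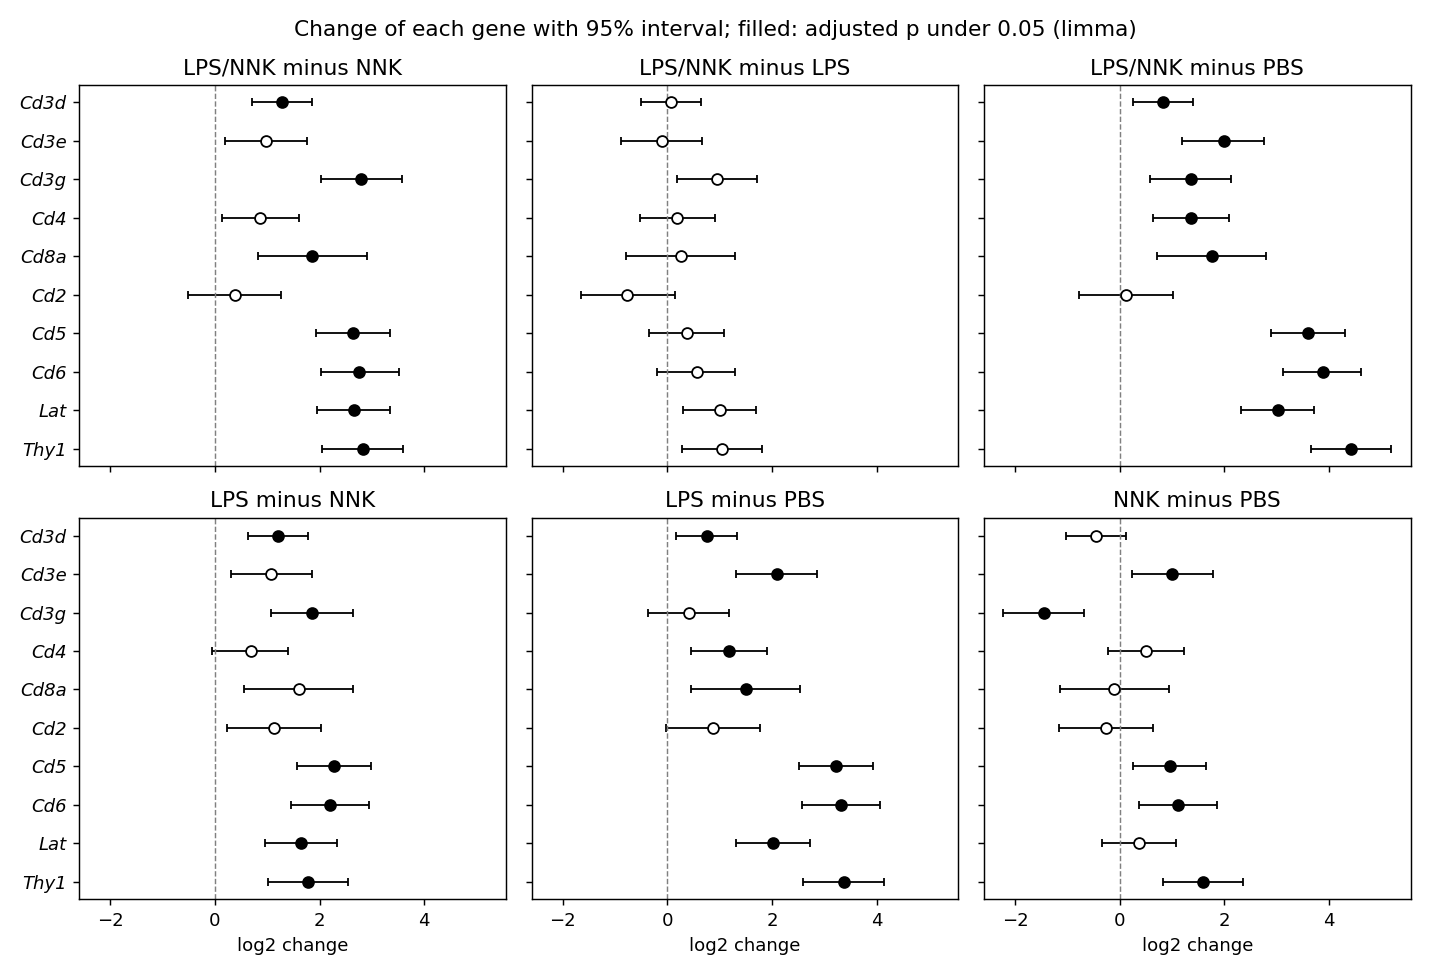
Log2 change of each gene in 6 comparisons (x axis, log2 units), with the 95% interval of the limma fit. Filled points have an adjusted p under 0.05. Intervals for Cd5, Cd6, Lat and Thy1 stay above 1.9 in LPS/NNK minus NNK, and every point is open in LPS/NNK minus LPS.

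The order of the group levels differed by gene. Cd4, Cd5, Cd6, Lat and Thy1 had their means in the order LPS/NNK, LPS, NNK, PBS, and Cd3e in the order LPS, LPS/NNK, NNK, PBS. For Cd3d, Cd3g and Cd8a the order was LPS/NNK, LPS, PBS, NNK, and for Cd2 it was LPS, LPS/NNK, PBS, NNK. These orders are those of each gene's brightest probe. LPS/NNK minus LPS was 0.26 on the brightest Cd8a probe, but -0.75 and -0.23 on the dimmer ones. For Cd6 it was 0.56 on the brightest and -0.66 on the dimmer probe, and for Thy1 1.05 and 0.67. The LPS/NNK and LPS means were not told apart for any gene on all arrays. LPS and NNK, the pair that separates single agents, differed for 6 of 10 (Cd3d, Cd3g, Cd5, Cd6, Lat and Thy1), by 1.20 to 2.27, where 2.73% of all tested were higher in LPS. The Cd3d call ended without LPS replicate 1 or 5 or NNK replicate 3 or 5 (0.99 to 1.22, adjusted p 0.0541 to 0.0944). Without LPS replicate 6, Cd8a was also called (2.21, adjusted p 0.00655). Under normexp 3 of the 10 were called higher, where 195 of the 21856 tested were. All 10 had every LPS array above every NNK array, as 8.55% of all tested did. In LPS/NNK against NNK, 8 of 10 were higher without overlap, as 15.7% of all tested were.

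Without PBS replicates 1 and 2, PBS replicate 3 alone stood for the group, so the spread of that group is unknown and only effect sizes are given. Cd3e, Cd5, Cd6, Lat and Thy1 then had the largest changes against PBS lungs in both endotoxin groups. The median change of the 10 was then 1.84 in LPS/NNK, 1.58 in LPS and 0.28 in NNK against PBS lungs. In LPS/NNK against PBS lungs the changes were then 3.92 for Cd6, 3.85 for Thy1, 3.56 for Cd5, 2.74 for Lat and 2.0 for Cd3e. Cd3g was 1.16, Cd8a 1.68, Cd4 1.34, Cd3d 0.93 and Cd2 0.15. In LPS against PBS lungs the changes were 3.36 for Cd6, 3.18 for Cd5, 2.80 for Thy1, 2.11 for Cd3e and 1.73 for Lat. Cd8a was 1.43, Cd4 1.15, Cd2 0.90, Cd3d 0.85 and Cd3g 0.21. In NNK against PBS lungs Cd3g was then -1.64, Thy1 1.03 and Cd6 1.16. With all PBS arrays kept, the NNK calls of Cd3g and Thy1 ended under normexp (-0.83, adjusted p 0.0873, and 1.02, adjusted p 0.104).

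Each group sat at one position of its slides, and PBS replicate 2 was alone on its slide and scan day. On 2 slides an LPS/NNK and an NNK array lay together. LPS/NNK replicate 2 minus NNK replicate 3 was 2.84 for Cd3g, 3.25 for Cd5, 3.21 for Cd6, 1.88 for Lat and 1.99 for Thy1. LPS/NNK replicate 3 minus NNK replicate 5 was 2.31, 2.89, 3.18, 3.45 and 3.31 for the same genes. For all 10 genes both within-slide differences were above 0. Cd2 gave 1.29 and 0.08, and Cd3e 1.74 and 0.49. On another slide LPS/NNK replicate 6 minus PBS replicate 1 was 4.78 for Thy1, 2.97 for Cd6, 2.87 for Cd5, 2.93 for Lat, 1.83 for Cd3g and -0.41 for Cd2. NNK replicate 2 minus PBS replicate 3 was 0.90 for Thy1, 1.30 for Cd6, 1.0 for Cd5, 1.11 for Cd3e and -1.81 for Cd3g. The 3 LPS arrays had slides of their own, so slide and treatment cannot be told apart there.

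The genes correlated with each other to different degrees over the arrays, given here as a description, since arrays of a group share their treatment. Cd5 and Cd6, which lie next to each other in the genome, ran together (Pearson r 1 over 12 arrays, rounded, and 0.99 over the 9 arrays without PBS). Lat and Thy1 gave 0.96 and 0.98. Over 12 arrays Cd2 ran least with Thy1 (r 0.21) and Lat (0.24), and most with Cd4 (0.68) and Cd8a (0.61). Against the mean profile of the 10 genes, which includes the gene itself, r was highest for Cd5 (0.947) and lowest for Cd2 (0.583).

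Genes flanking the members in the RefSeq gene order (GRCm38.p6) were less uniform. Of 14 flanking protein-coding genes 12 were tested, and in LPS/NNK against NNK 3 were higher and 1 lower, where 17.3% of all tested were called. Beside Cd4, Gpr162 was higher by 3.72 (SE 0.30, adjusted p 3.78e-05) and Lag3, an inhibitory receptor that binds MHC class II, by 2.39 (SE 0.34, adjusted p 0.000675). The Cd3g, Cd3d and Cd3e row is flanked by Ube4a (-0.29, SE 0.46, adjusted p 0.709) and Mpzl2 (1.33, SE 0.41, adjusted p 0.04). Cd5 and Cd6 lie between Vps37c (-1.26, SE 0.46, adjusted p 0.073) and Slc15a3 (0.39, SE 0.29, adjusted p 0.384). Usp2, beside Thy1, was lower by 1.94 on the log2 scale (log2 change -1.94, SE 0.33, adjusted p 0.00244).

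Other genes of T cell receptor signalling were mostly higher as well. Of 22 listed and tested, 12 were higher and 1 lower in LPS/NNK than in NNK lungs, where 7.92% and 9.35% of all tested were, with a median log2 change of 1.22. Lck, the co-receptor kinase, was higher by 1.45 (SE 0.33, adjusted p 0.0108), and Lcp2, the SLP-76 adaptor that joins LAT, by 2.09 (SE 0.23, adjusted p 0.00014). Grap2, the Gads adaptor between LAT and SLP-76, was higher by 2.22 (SE 0.26, adjusted p 0.000241). Zap70 measured a change of 1.01 (SE 0.34, adjusted p 0.0545) and Cd247, the CD3 zeta chain, -0.22 (SE 0.46, adjusted p 0.782). Plcg1, the phospholipase recruited by LAT, was the one called lower, with a change of -1.51 (SE 0.46, adjusted p 0.0375).

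In LPS against PBS lungs 15 of the 22 signalling genes were higher and 2 lower, with a median of 1.16. Over all tested 26.1% were higher and 30% lower. Without PBS replicates 1 and 2 fewer were called, in this list as over all tested. Lck changed by 1.74 (adjusted p 0.000798) and Zap70 by 3.00 (adjusted p 2.6e-05), while Cd247 was 0.31 (adjusted p 0.59). In NNK against PBS lungs 4 were higher and 4 lower, where 27.8% and 23.7% of all tested were, with a median of 0.07. Without those arrays fewer were called here too, as over all tested. Zap70 was 1.76 (adjusted p 0.00115), Lck 0.32 (adjusted p 0.428) and Cd247 -0.72 (adjusted p 0.203) in NNK against PBS.

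**Figure D3:**
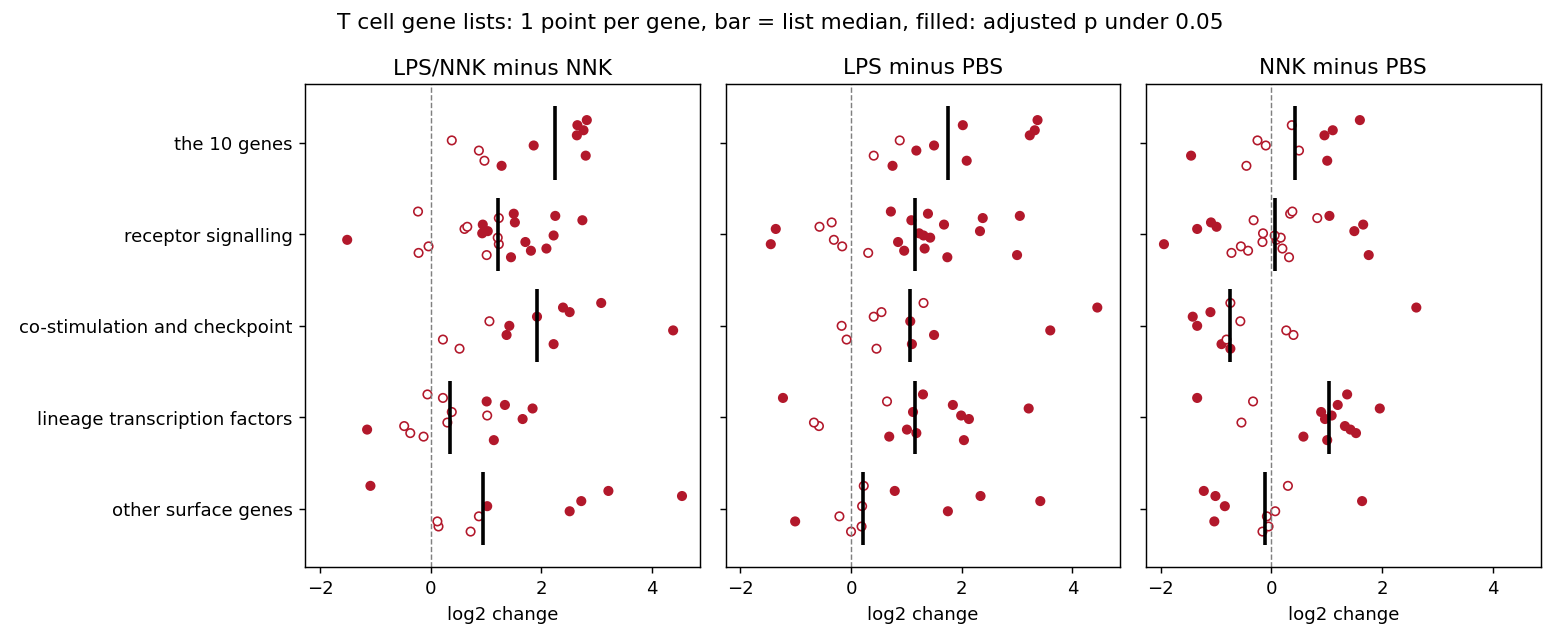
Log2 change (x axis) of the 10 genes and of 4 other T cell gene lists in LPS/NNK minus NNK, LPS minus PBS and NNK minus PBS. Each point is a gene, filled where its adjusted p is under 0.05, and the bar is the list's median. The co-stimulation list has a median of 1.92 in LPS/NNK minus NNK and -0.74 in NNK minus PBS.

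Of 11 tested co-stimulation and checkpoint genes, 8 were higher and none lower in LPS/NNK than in NNK lungs, where 7.92% and 9.35% of all tested were, with a median of 1.92. Icos, a co-stimulatory receptor of activated T cells, was higher by 2.22 (SE 0.27, adjusted p 0.000295), Tnfrsf4 (OX40) by 1.37 (SE 0.29, adjusted p 0.0074) and Pdcd1 (PD-1) by 4.38 (SE 0.62, adjusted p 0.000733). Cd28 and Cd27 measured 0.52 (SE 0.25, adjusted p 0.176) and 0.22 (SE 0.40, adjusted p 0.749). In LPS against PBS lungs 5 were higher and none lower, where 26.1% and 30% of all tested were. Fewer were called higher without PBS replicates 1 and 2, as over all tested. In NNK against PBS lungs 1 was higher and 5 lower, where 27.8% and 23.7% of all tested were, with a median of -0.74. Fewer were called lower without those arrays, as over all tested. On all arrays Cd28 was -0.74 (adjusted p 0.0267), Icos -0.90 (adjusted p 0.0141), Cd27 -0.81 (adjusted p 0.107) and Tnfrsf4 0.40 (adjusted p 0.259) in NNK against PBS.

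Of 14 lineage transcription factors of T cells, 5 were higher and 1 lower in LPS/NNK than in NNK lungs, where 7.92% and 9.35% of all tested were, with a median of 0.34. Bcl11b, needed for T cell commitment, was higher by 1.14 (SE 0.33, adjusted p 0.0316), and Foxp3, the factor of regulatory T cells, by 1.84 (SE 0.44, adjusted p 0.0142). Tcf7 was -0.13 (SE 0.21, adjusted p 0.72), Gata3 -0.37 (SE 0.34, adjusted p 0.486) and Lef1 -1.15 (SE 0.31, adjusted p 0.0226). In NNK against PBS lungs 11 were higher and 1 lower, where 27.8% and 23.7% of all tested were, with a median of 1.05. In LPS against PBS lungs 10 were higher and 1 lower, where 26.1% and 30% of all tested were, with a median of 1.15. In both comparisons fewer were called higher without PBS replicates 1 and 2, as over all tested.

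Of 10 tested genes for other T cell surface receptors, 5 were higher and 1 lower in LPS/NNK than in NNK lungs, where 7.92% and 9.35% of all tested were, with a median of 0.94. Il7r, Ccr7 and Cd7 measured 0.72 (SE 0.33, adjusted p 0.153), 0.14 (SE 0.35, adjusted p 0.808) and 0.87 (SE 0.34, adjusted p 0.0984). Cxcr6 was higher by 4.54 (SE 0.33, adjusted p 2.84e-05), Cxcr3 by 2.72 (SE 0.27, adjusted p 0.000105) and Il2rb by 2.51 (SE 0.30, adjusted p 0.000258). Under normexp the counts higher in LPS/NNK than in NNK lungs were 5 of 22 signalling genes, 2 of 11 co-stimulation genes, 0 of 14 lineage factors and 4 of 10 surface genes, and none was lower. Of the 21856 tested, 333 were then higher and 20 lower.

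Markers of other cells that could bear on these genes moved unevenly. In LPS/NNK against NNK lungs, where these markers are counted, 7.92% of all tested were higher and 9.35% lower. The summed linear level of the 10 genes, with an array's 75th percentile as 1, was 101 to 196 in LPS/NNK arrays, 69.8 to 92.2 in LPS arrays, 18.7 to 23.8 in NNK arrays and 10.8 to 13.4 in PBS arrays. Such a sum follows the brightest probes of its list, so it is not the level of a cell type. For the 10 genes these were Thy1, Cd6 and Cd5 in LPS/NNK arrays. Of 7 tested B cell markers 2 were higher in LPS/NNK than in NNK lungs: Ms4a1 by 1.17 (adjusted p 0.0246) and Cd79b by 1.24 (adjusted p 0.026), with Cd79a at 0.58 (adjusted p 0.341). Their summed level was 20.5 to 26.2 in LPS/NNK, 15.4 to 32.5 in LPS, 9.22 to 12.8 in NNK and 7.37 to 13.3 in PBS arrays. Of 7 natural killer cell markers 2 were higher, Eomes by 1.02 (adjusted p 0.0417) and Nkg7 by 1.86 (adjusted p 0.0034), both of which T cells can carry, while Ncr1 was -1.34 (adjusted p 0.113), Klrb1c -0.62 (adjusted p 0.279) and Gzma 0.16 (adjusted p 0.846). The natural killer sum was 12.1 to 17.4, 8.71 to 11.4, 4.50 to 7.09 and 2.86 to 7.29 in LPS/NNK, LPS, NNK and PBS arrays. Nkg7 was the brightest tested gene of that list in every array (log2 3.38 to 3.99 in LPS/NNK arrays), so the sum mostly follows Nkg7.

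Fibroblasts carry Thy1, and 3 of 8 fibroblast markers were higher and none lower in LPS/NNK than in NNK lungs, with sums of 334 to 603 in LPS/NNK, 253 to 512 in LPS, 242 to 318 in NNK and 113 to 143 in PBS arrays. Mast cells and platelets carry Lat. None of 6 tested mast cell and basophil markers was called in LPS/NNK against NNK (limma, 9.35% of all tested lower and 7.92% higher), with 0 at an unadjusted p under 0.05, and their sum was 2.39 to 3.06 in LPS/NNK, 3.62 to 4.65 in LPS, 3.07 to 4.65 in NNK and 5.62 to 9.80 in PBS arrays, with Ms4a2 above background on no array. Of 7 platelet markers 4 were lower and none higher, with sums of 9.67 to 21.2 in LPS/NNK, 12.9 to 31.7 in LPS, 26.0 to 32.8 in NNK and 21.2 to 23.2 in PBS arrays. None of 7 innate lymphoid markers was called by limma, with 1 at an unadjusted p under 0.05, with sums of 6.84 to 9.19 in LPS/NNK, 7.20 to 11.8 in LPS, 9.54 to 11.2 in NNK and 9.56 to 15.3 in PBS arrays. Of 7 dendritic cell markers 1 was lower and none higher, with sums of 24.4 to 29.3, 22.6 to 31.5, 15.9 to 22.9 and 5.27 to 9.09 in LPS/NNK, LPS, NNK and PBS arrays. Itgax was the brightest tested dendritic gene in every array and Kit the brightest mast cell gene, so these sums mostly follow them.

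Thymus lies near the lung and is rich in these transcripts. Of 8 thymus markers, Rag1, Rag2, Ptcra and Psmb11 were above background on no array, and Dntt, Foxn1, Prss16 and Ccl25 were on some. Their summed level was 0.667 to 1.11 in LPS/NNK, 0.497 to 0.625 in LPS, 0.483 to 0.775 in NNK and 1.12 to 1.42 in PBS arrays. By limma neither of the 2 tested thymus genes was called in LPS/NNK against NNK, with 1 at an unadjusted p under 0.05 (Dntt 0.80, adjusted p 0.0714, and Ccl25 0.44, adjusted p 0.353). Lymph node and follicle genes moved with the members: 3 of 6 tested were higher and none lower, where 7.92% and 9.35% of all tested were. Ccl19, a chemokine of the T cell zone, was higher by 4.38 (adjusted p 8.48e-05), Cxcl13, a chemokine of B cell follicles, by 3.39 (adjusted p 0.00502) and Glycam1, a ligand of high endothelial venules, by 2.95 (adjusted p 0.0315). Cr2 was 0.78 (adjusted p 0.118) and Madcam1 0.05 (adjusted p 0.948). The summed level of that list was 34.1 to 81.8 in LPS/NNK, 27.0 to 44.3 in LPS, 3.03 to 3.54 in NNK and 1.37 to 4.17 in PBS arrays. Lung epithelium and endothelium markers summed to 979 to 2250, 1130 to 1500, 1460 to 1960 and 700 to 992 in LPS/NNK, LPS, NNK and PBS arrays, with 2 of 8 lower in LPS/NNK than in NNK lungs. The part of these other cells in the members' changes was not tested.

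**Figure D4:**
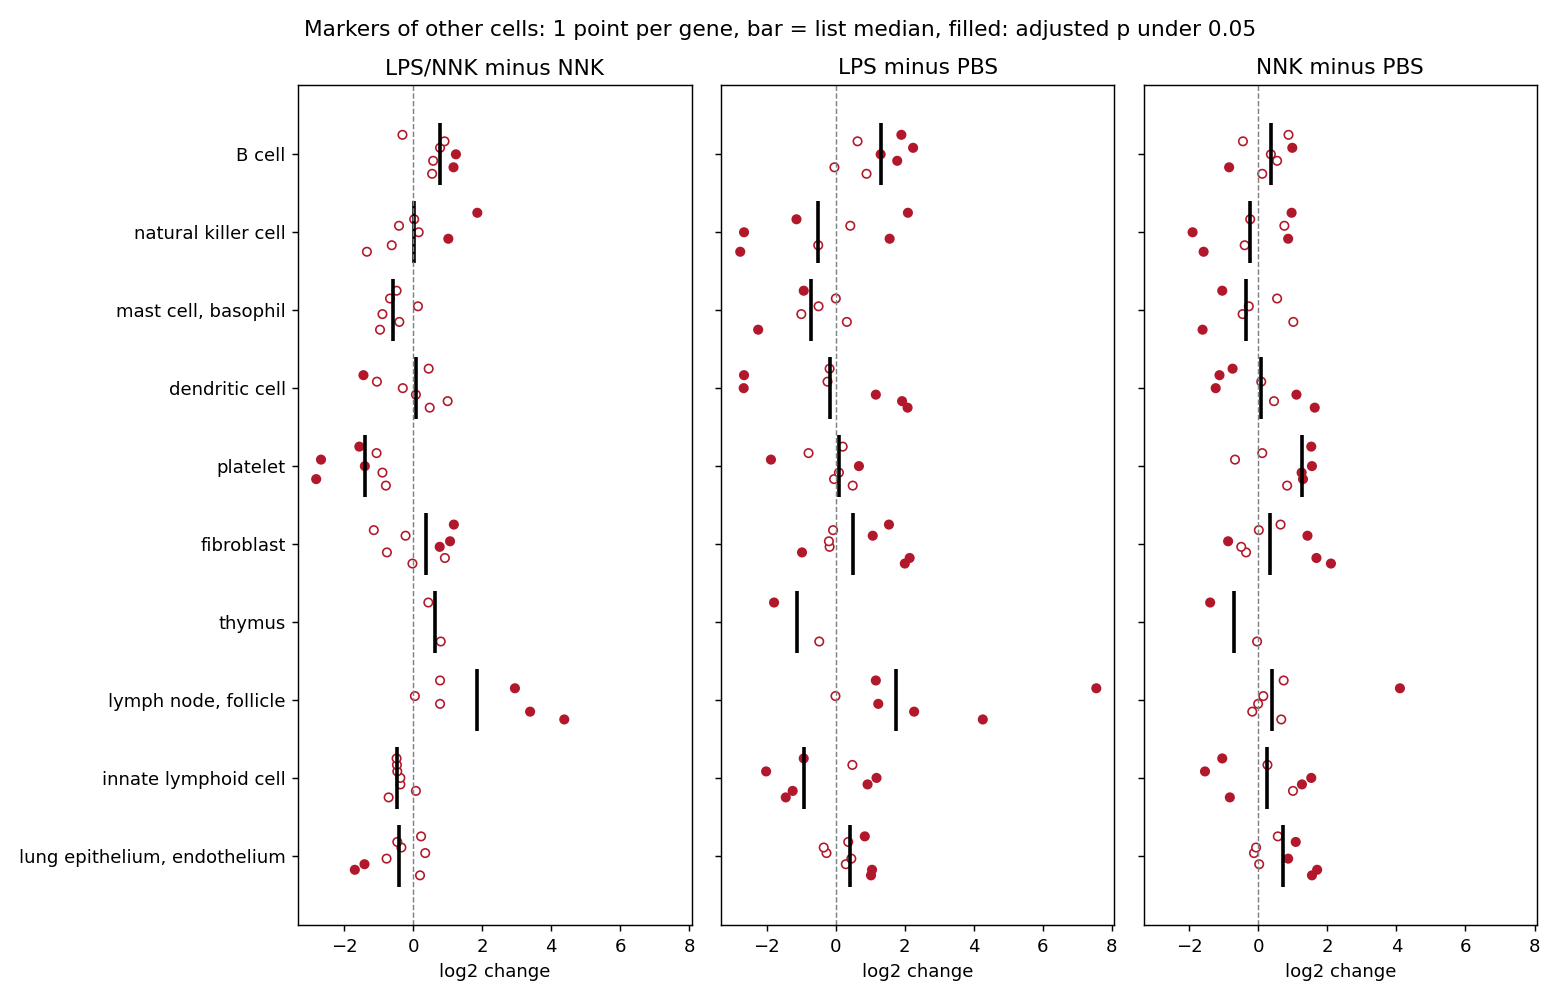
Log2 change (x axis) of markers of 10 other cell types or tissues in LPS/NNK minus NNK, LPS minus PBS and NNK minus PBS. Each point is a gene, filled where its adjusted p is under 0.05, and the bar is the list's median. In LPS/NNK minus NNK the lymph node list sits to the right (median 1.86) and the platelet list to the left (median -1.40).

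The named genes whose log2 values ran most like the mean profile of the 10 were found among 13456 others. Over 12 arrays they were Cd72 (Pearson r 0.975), Parvg (0.971), Slamf7 (0.97), Acap1 (0.968), Lck (0.968), Gfi1 (0.965), Slamf8 (0.964) and Lta (0.963). Over the 9 arrays without PBS they were Itga4 (0.994), Icos (0.987), Epsti1 (0.986), Il4i1 (0.984), C1s1 (0.984), Slamf8 (0.984), Pigr (0.983) and Tlr1 (0.983). Slamf8 was named in both. Lck and Icos are T cell genes of the lists above, and the other genes named here are in none of those lists. Icos measured -1.14, -1.09 and -1.38 in LPS/NNK lungs, -1.14, -1.18 and -1.96 in LPS lungs, -3.43, -3.26 and -3.58 in NNK lungs and -2.58, -2.81 and -2.19 in PBS lungs. The 3 NNK arrays lay below every other array for Icos, as they did for Cd3g.

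**Figure D5:**
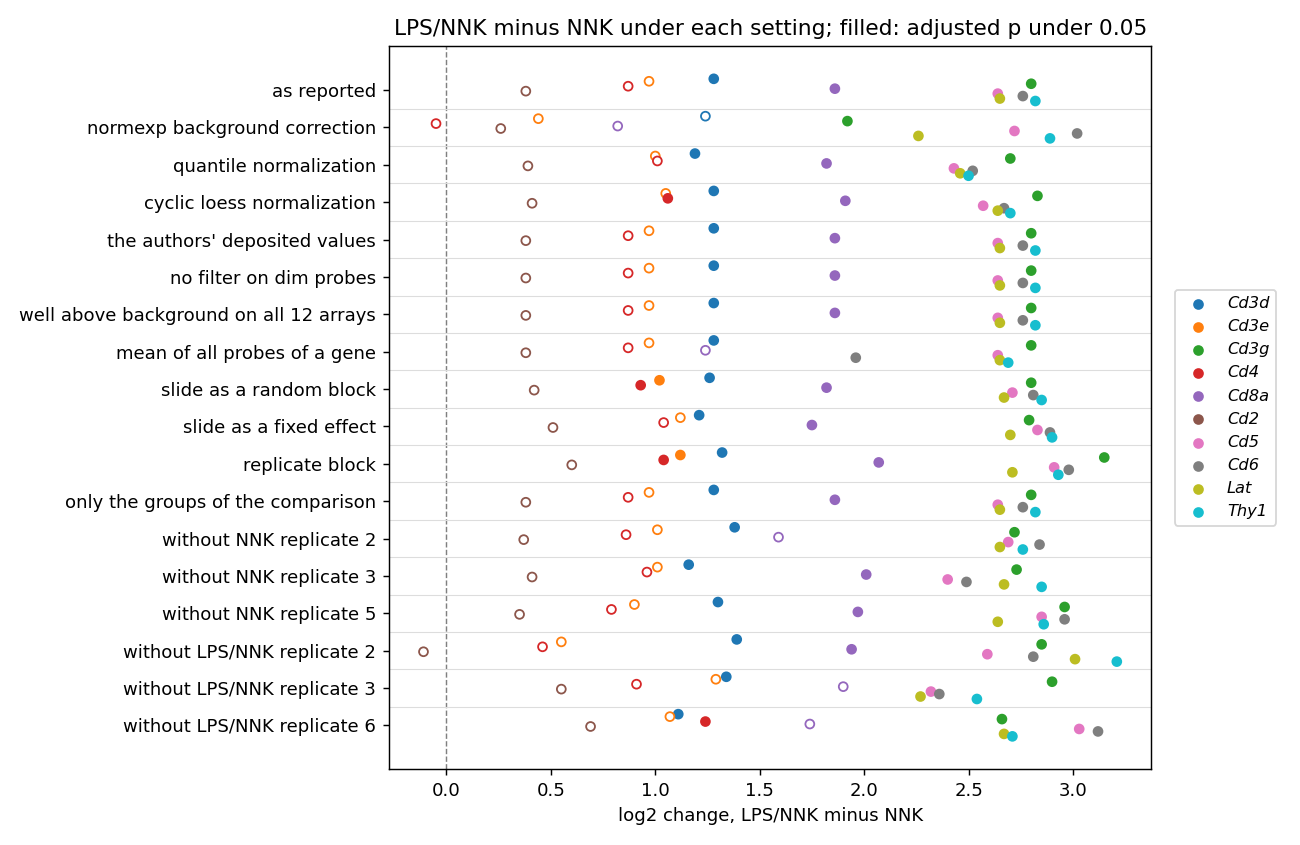
Log2 change of the 10 genes in LPS/NNK minus NNK (x axis) as reported and under each other way of processing the arrays (rows). Points are filled where the adjusted p is under 0.05. Cd3g, Cd5, Cd6, Lat and Thy1 are filled in every row, at 1.92 to 3.21, and Cd2 is open in every row.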

How the data were processed

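Total lung RNA was labelled with Cy3 and hybridised to 12 1-colour Agilent arrays. Per the file headers, the deposited spot intensity values were background-subtracted and detrended within each array by Feature Extraction 10.7.3.1. The submitters' processing notes name Feature Extraction 10.7 and Partek. The authors' deposited log2 value table equals log2 of the mean spot signal minus each array's 75th percentile, to within 4.54e-05 after an offset per array of at most 0.000144.

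Here control and outlier spots were left out (39 to 99 outlier spots per array, none saturated), spots of a probe were averaged, log2 was taken and each array's 75th percentile subtracted. Of 41137 probes, 24355 (59.2%) had a symbol through RefSeq accessions. Probes well above background (on at least 0.5 of their spots) on every array of a group were kept, and a gene's brightest probe stood for it. This left 21856 genes and unnamed transcripts. Group means were fitted with limma 3.58.1 over all 12 arrays, which share 1 estimate of spread (8 residual and 5.5 prior degrees of freedom), and p-values were adjusted by Benjamini-Hochberg over all items. A call is an adjusted p under 0.05. All tests were 2-sided. The fit was tested on simulated data. The number of arrays limits the precision.

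The 10 genes and the gene lists were chosen with earlier results of these data known. All 10 are named; from a list, its first 4 tested genes are among those named, except some genes that are not reported here; the 8 genes most like the members were taken by Pearson correlation. The flanking genes were added by position. Replicate numbers were not taken to pair arrays in the main fit. Of 9 same-numbered pairs, deviations correlated at -0.147 to 0.408, over 0.1 in 3. So few arrays cannot exclude a pairing. Alternatives were background correction, normalization, the filter, the probe rule, slide, replicate block, the arrays fitted and arrays left out. Spot means are not in the files, so normexp (offset 50) used spot medians and background medians in place of the planned means. RefSeq promoters and gene order are of GRCm38.p6. R 4.3.3 and Python 3.11.15 were used.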

Additional observations from a re-analysis of the deposited data

Results flagged for a closer look

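One difference between contrasts passed its own test among the 10 genes. The Cd3g response to endotoxin was larger with NNK than without it by 2.40 on the log2 scale (SE 0.51, limma interaction term, adjusted p 0.00433). This term was called for 38.7% of all genes and transcripts tested. The endotoxin difference was 2.80 in carcinogen-treated lungs and 0.41 in lungs without the carcinogen. The mean level was 1.55 in LPS/NNK lungs, against -1.26 in NNK lungs and 0.19 in PBS lungs. Leaving out single arrays gave 1.93 to 2.79, and under normexp the difference was 1.60 (adjusted p 0.106), which no longer passed.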

How the results depend on the processing

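Of the 10 genes, Cd5, Cd6, Lat and Thy1 kept their calls in LPS/NNK minus NNK, LPS/NNK minus PBS and LPS minus PBS under every alternative run, and Cd3g in the first of these. No called value changed sign. The deposited values, no filter on dim probes and the all-array filter changed no call of the 10. Under normexp 13 of 70 values lost their call and 1 gained one. The cause was not tested.

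Counts of calls over all genes and transcripts depended more on processing. For LPS/NNK minus NNK the count of 3773 was 353 under normexp and 1579 to 5821 without one array. For LPS/NNK minus LPS the count of 898 was 0 under normexp (limma, 1522 at an unadjusted p under 0.05), 345 without the filter, 38 with only those groups fitted and 80 to 4828 without one array. For LPS/NNK minus PBS 12036 became 6459 under normexp, 18661 without the filter and 6616 without PBS replicates 1 and 2. For LPS minus PBS 12243 became 4120, 19478 and 5691 in the same settings. For NNK minus PBS 11264 became 17566 without the filter, 6641 with slide as a fixed effect and 4298 without those PBS arrays. For LPS minus NNK 1360 became 220 under normexp, 805 with the all-array filter and 600 to 2129 without one array. For the interaction 8464 became 51 under normexp, 13191 without the filter and 2631 without those PBS arrays.

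With the replicate number as a block, LPS/NNK minus LPS had 1896 calls. Among the 10 genes the replicate block added Cd3e (1.12, adjusted p 0.0485) and Cd4 (1.04, adjusted p 0.0394) in LPS/NNK minus NNK and Cd2 (1.34, adjusted p 0.0131) in LPS minus PBS, and 4 more of its 70 values changed their call. Normexp shifted the median of all items to 0.532 in LPS/NNK minus PBS, 0.335 in LPS minus PBS and 0.555 in NNK minus PBS. The share of calls that were higher was 80%, 64% and 82.3% there, 68.2%, 66.7% and 70.4% without the filter, and 61.6%, 58.1% and 63.1% with the all-array filter, against 50.7%, 46.5% and 54% as reported. It was 94.3% under normexp in LPS/NNK minus NNK. The slide as a fixed effect could not be fitted for comparisons with LPS arrays, which had slides of their own.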
